A study of Mus musculus with 14 samples.

Results

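The levels of 10 genes linked to inflammatory monocytes were followed through 14 mouse liver tumours: Ly6c2, Ccr2, Ccl2, Plac8, Ms4a6b, Ms4a6c, Ms4a4c, Chil3, Fcgr1 and Itgam. They are 10 of the 29923 gene symbols in the deposited expression table, and all 10 passed the filter on low values (1 TPM or more in at least 3 tumours), as did 13466 genes in all. TPM is a share of the transcripts of a library, corrected for transcript length, so levels of different genes can be compared on it. Of the 10, 8 were taken by name. Plac8 and Ms4a6b were chosen for their higher levels in LucOS vector tumours, with no stated threshold, so every comparison with those tumours is given for these 2 genes as a description, without a test.

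The tumours were hepatocellular carcinomas of C57BL/6 mice, raised by rapid tail-vein injection of transposon plasmids with SB100, a transposase that inserts them into the genome of liver cells. Luc tumours received MYC and luciferase under the EF1a promoter; LucOS tumours received the same cassette extended with the OVA, SIN and SIY antigens. Either was combined with the plasmid PKT2/CLP-Aoah, which delivers acyloxyacyl hydrolase, an enzyme that removes fatty acyl chains from bacterial lipopolysaccharide, or with the empty plasmid PKT2/CLP-Vec. This gave 4 Luc Aoah, 4 Luc vector, 3 LucOS Aoah and 3 LucOS vector tumours. The series also names a plasmid for activated beta-catenin (pT3-N90-CTNNB1) without assigning it to single tumours, and an anti-PD1 protocol accompanies the labels, with no tumour marked as treated. Age, sex and collection time are not given in the sources used here. Each sample was bulk tumour, so a lower level from fewer cells of a type cannot be told apart from less RNA per cell. The labels number the tumours without saying that each came from its own mouse; p-values therefore measure the spread between these samples, which may in part be technical.

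Classical monocytes leave the bone marrow through the chemokine receptor Ccr2, follow its ligand Ccl2 into inflamed tissue and carry the surface protein Ly6C there. In the liver they can become macrophages that stand beside the resident Kupffer cells, or cells that restrain T cells in tumours. None of the 10 genes is restricted to monocytes. Ly6c2, Plac8 and Ms4a6b are also transcribed in lymphocytes, Itgam and Chil3 in neutrophils, Fcgr1 in macrophages, and Ccl2 in many stromal and epithelial cells.

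Several libraries stood apart before any monocyte gene was compared. Aoah itself ranged from 284 to 685 TPM among the Luc tumours given its plasmid, from 576 to 931 TPM among the LucOS tumours given it, and from 1.28 to 3.43 TPM among LucOS vector tumours. In the tumours labelled Luc vector it lay at 18.6 TPM in tumour 1 and 54.8 TPM in tumour 3 against 0.74 and 0.89 TPM in tumours 2 and 4, and the main comparisons with that group are also given without tumours 1 and 3. Whether these 2 libraries carry RNA of another tumour, or stand under a wrong label, cannot be told from the files. LucOS Aoah 3 had 16.6% of its TPM in genes of mitochondrial DNA, against 3.41% to 8.45% in the other tumours. LucOS Aoah 3 and LucOS vector 3 were highest of their groups for nearly all 10 genes (below), and results are given without both. Albumin, the defining hepatocyte gene, was at 1298 TPM or more in every tumour. TPM keeps no sequencing depth, so depth is unknown and no counting error can be attached to a level. Changes are limma estimates on log2(TPM + 1), on which the pseudocount of 1 shrinks the change of a gene at low level; adjusted p-values are limma's with Benjamini-Hochberg adjustment over all 13466 genes.

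Promoter stretches are shown for Fcgr1 and Chil3, the 2 genes with a match to an interferon gamma motif, and for Itgam as an example of a myeloid motif matched on both strands. They come from RefSeq's promoter windows of build GRCm38.p6, which matched 9 of the 10 genes; Ccl2 had no entry. The submitters' notes name build mm39, so these positions belong to the sequence and not to the expression data. Letters run 5′ to 3′ on the strand of the gene and end at the base before the transcription start. Capitals mark exact matches, on either strand, to the gamma-activated site TTCNNNGAA or to the PU-box GAGGAA, which reads TTCCTC when it lies on the other strand.
Fcgr1, chr3:96293970-96294089, minus strand: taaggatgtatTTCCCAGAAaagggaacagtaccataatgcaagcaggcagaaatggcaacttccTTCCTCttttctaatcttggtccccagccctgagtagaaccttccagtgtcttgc
Chil3, chr3:106167565-106167744, minus strand: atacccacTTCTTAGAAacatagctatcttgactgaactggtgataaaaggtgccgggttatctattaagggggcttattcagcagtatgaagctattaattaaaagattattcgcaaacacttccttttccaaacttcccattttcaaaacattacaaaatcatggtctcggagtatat
Itgam, chr7:128062550-128062639, plus strand: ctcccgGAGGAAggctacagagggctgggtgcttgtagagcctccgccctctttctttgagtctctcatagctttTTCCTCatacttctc
The gamma-activated site, an element of genes induced by interferon gamma, matched in the 250 bases before the start of Fcgr1 and Chil3 among the 9 genes, and in 7.02% of 32851 promoter windows of that length. The PU-box, bound by the myeloid factor PU.1, matched before Ly6c2, Plac8, Ms4a4c, Fcgr1 and Itgam, and in 23.3% of all windows. The interferon-stimulated response element, searched as GAAA followed after any 2 bases by GAAA, matched before none of the 9, and in 2.98% of all windows. A match is a run of letters and no evidence of binding, and its absence says only that these letters are not in this window.

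In Luc tumours, Ly6c2, Ccr2, Ccl2 and Ms4a6b were higher with Aoah than with vector, between 2.24-fold and 4.81-fold in mean TPM, and Chil3 was lower, at a ratio of 0.157. These 5 passed an adjusted p of 0.05 in limma: 4 of 10 genes rose and 1 of 10 fell. The choice of Plac8 and Ms4a6b rests on the LucOS vector level, and the Luc vector tumours are the low side of that difference; without these 2 genes, 3 of 8 rose and 1 of 8 fell, with a median of 0.75. Over all genes tested, 22.2% passed, 7.93% higher and 14.3% lower, so the single fall is near the share seen in all genes. The median change over the 10 genes was 0.88 on the log2 scale, against -0.24 over all genes tested. Groups did not overlap for 6 of the 10 genes in the higher direction (11.8% of all genes) and for Chil3 in the lower (9.1% of all genes). After each tumour was centred on its median, the median change of all genes moved from -0.24 to 0.07 and the share of calls that were higher from 35.7% to 52.1%; all 10 genes kept their direction, and 5 rose and 1 fell, where 15.9% of all genes rose and 14.7% fell. Without Luc vector 1 and 3, 265 of all genes rose and 96 fell, in place of 1068 and 1920. The plot of estimated changes shows the 5 genes that passed and how far the others lay from 0.

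**Figure D1:**
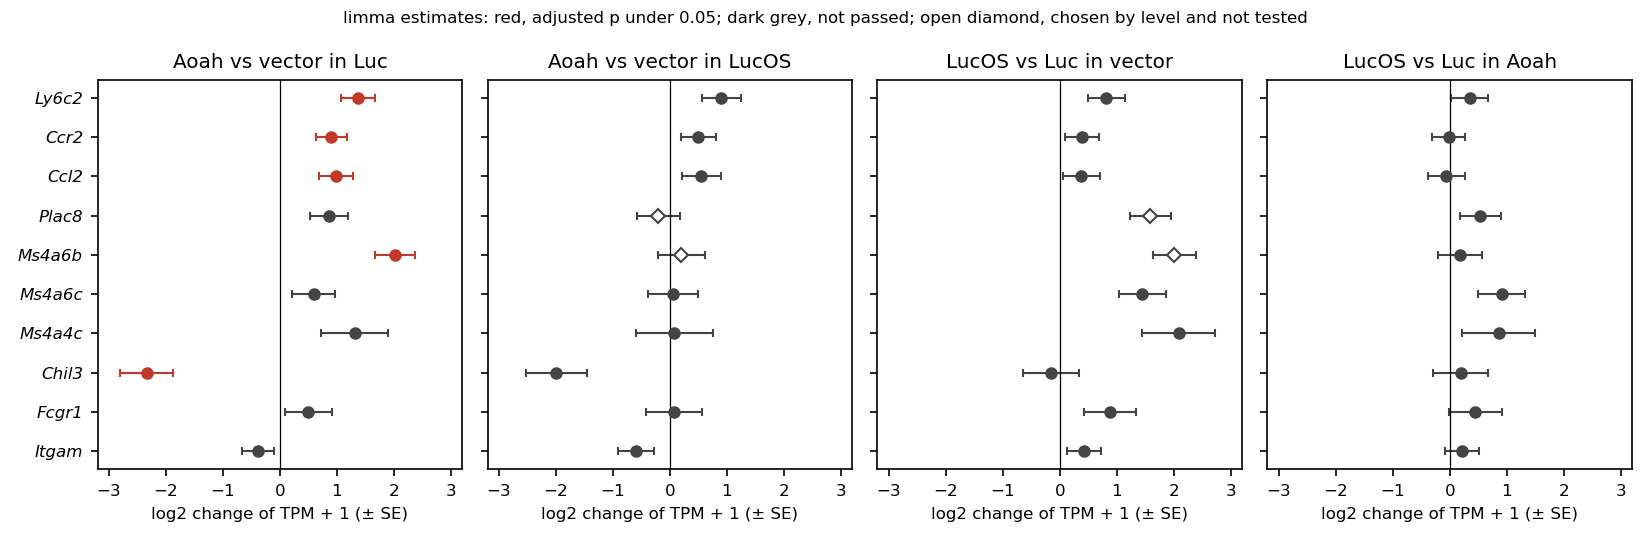
Estimated log2 change of TPM + 1 (horizontal axis, point ± SE) of the 10 genes in 4 comparisons. Red points passed an adjusted p of 0.05, dark grey points did not, and open diamonds are Plac8 and Ms4a6b where LucOS vector tumours enter, given without a test; 5 genes passed in Luc tumours and none in the other comparisons.

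Ly6c2 encodes Ly6C, the surface protein by which classical monocytes are sorted. Its level was 10.9, 13.3, 7.96 and 14.9 TPM in Luc Aoah tumours 1 to 4 and 2.86, 3.83, 4.15 and 4.69 TPM in Luc vector tumours 1 to 4. The lowest Aoah value exceeded the highest vector value, with means of 11.8 ± 3.03 TPM (SD, n = 4) and 3.88 ± 0.769 TPM (SD, n = 4). The change was 1.37 (SE 0.29) on the log2 scale, with an adjusted limma p of 0.00752. Among LucOS tumours Ly6c2 was 14.5, 9.76 and 23.3 TPM with Aoah and 4.88, 7.52 and 11.5 TPM with vector. These groups overlapped, since vector tumour 3 lay above Aoah tumour 2, and the change of 0.90 (SE 0.34) had an adjusted limma p of 0.274. Ly6c1, a near copy expressed by endothelial cells, shares 30.8% of the 50-base words of Ly6c2 transcripts, so the authors' counting may have divided reads between both genes. Ly6c1 stood lower, at 1.23 to 4.48 TPM in Luc and 1.87 to 14.1 TPM in LucOS tumours, and its change in Luc was 0.59 (SE 0.36) with an adjusted limma p of 0.222. Without Luc vector tumours 1 and 3 the Ly6c2 change in Luc was 1.25, with an adjusted limma p of 0.113.

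**Figure D2:**
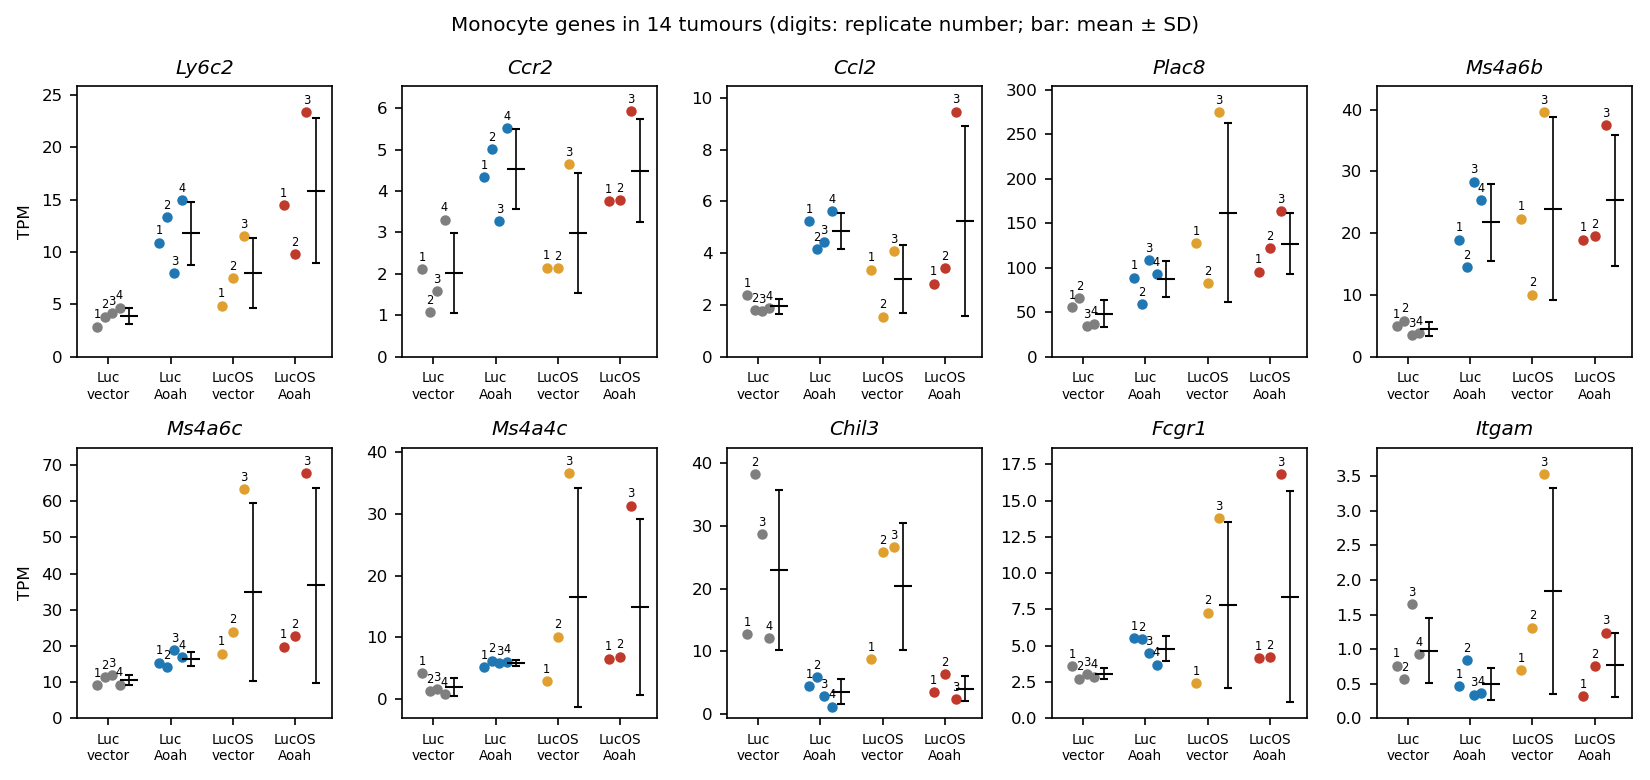
TPM (vertical axes, each from 0 or below) of each of the 10 genes in the 14 tumours by group; points are tumours with their replicate number, and bars are group mean ± SD. In Luc, all Aoah tumours lie above all vector tumours for Ly6c2, Ccl2, Ms4a6b, Ms4a6c, Ms4a4c and Fcgr1 and below them for Chil3. Tumour 3 is the highest of LucOS vector for all 10 genes and of LucOS Aoah for all but Chil3.

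Ccr2, the receptor that brings monocytes out of the marrow, was 4.33, 5.01, 3.27 and 5.51 TPM in Luc Aoah and 2.12, 1.08, 1.59 and 3.31 TPM in Luc vector tumours. The lowest Aoah tumour, tumour 3, lay just under the highest vector tumour, tumour 4. The change was 0.90 (SE 0.27) with an adjusted limma p of 0.0332. In LucOS, Ccr2 was 3.76, 3.78 and 5.92 TPM with Aoah and 2.15, 2.14 and 4.65 TPM with vector. Vector tumours 1 and 2 lay below every Aoah tumour and vector tumour 3 among them, and the change of 0.50 (SE 0.31) did not pass (adjusted limma p 0.591).

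Ccl2, the main ligand of Ccr2, was 5.25, 4.16, 4.43 and 5.63 TPM in Luc Aoah and 2.37, 1.79, 1.76 and 1.88 TPM in Luc vector tumours. The groups were well apart and each was tight, at 4.87 ± 0.688 TPM (SD, n = 4) and 1.95 ± 0.285 TPM (SD, n = 4). The change was 0.99 (SE 0.30) with an adjusted limma p of 0.0338. In the LucOS model Ccl2 was 2.82, 3.42 and 9.47 TPM with Aoah and 3.36, 1.55 and 4.09 TPM with vector. Aoah tumour 3 alone lay above all others and the remaining values mixed; the change of 0.55 (SE 0.34) had an adjusted limma p of 0.591. The calls of Ccr2 and Ccl2 in Luc were the weak ones. When each of the 8 Luc tumours was left out in turn, Ccr2 passed in 3 fits and Ccl2 in 2, whereas Ly6c2, Ms4a6b and Chil3 passed in all 8. Without Luc Aoah 1, Luc Aoah 4, Luc vector 1 or Luc vector 3, 3 of the 10 genes passed in place of 5. Without Luc vector 1 and 3 together 2 passed, Ms4a6b at 1.94 (adjusted limma p 0.0445) and Chil3 at -2.42 (adjusted limma p 0.0444).

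Ccl7, another Ccr2 ligand and the neighbour of Ccl2 on chromosome 11, stood at 0.60 (SE 0.33) with Aoah in Luc, and Ccl4, a chemokine of activated myeloid and T cells, at 0.81 (SE 0.39); neither passed, with adjusted limma p-values of 0.176 and 0.128.

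Plac8, a cysteine-rich protein gene of myeloid and some lymphoid cells, had the highest level of the 10. It stood at 89.0, 59.3, 108 and 92.7 TPM in Luc Aoah and 55.7, 66.1, 34.5 and 37.4 TPM in Luc vector tumours. The groups overlapped through Aoah tumour 2, which lay below vector tumour 2, and the change of 0.86 (SE 0.33) had an adjusted limma p of 0.0714. LucOS tumours held Plac8 at 95.6, 122 and 164 TPM with Aoah and 128, 82.5 and 275 TPM with vector. Vector tumours there spanned from the lowest to the highest of the 6 LucOS values. Since Plac8 was chosen by its level in LucOS vector tumours, its difference from Luc vector, 1.59 (SE 0.36) with groups that did not overlap, and its Aoah change in LucOS, -0.20 (SE 0.38), stand as descriptions.

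Ms4a6b, Ms4a6c and Ms4a4c encode small membrane-spanning proteins and lie in a row of Ms4a genes on chromosome 19 together with Ms4a4b and Ms4a6d. Ms4a6b was 19.0, 14.5, 28.3 and 25.3 TPM in Luc Aoah and 4.91, 5.87, 3.46 and 3.85 TPM in Luc vector tumours. Its groups were far apart, 21.8 ± 6.22 TPM (SD, n = 4) against 4.52 ± 1.09 TPM (SD, n = 4), the largest rise of the 10 genes in this comparison. The change was 2.02 (SE 0.35) with an adjusted limma p of 0.00214. The Luc vector tumours, the low side of the difference by which Ms4a6b was chosen, also enter this test. Among LucOS tumours Ms4a6b was 19.0, 19.5 and 37.5 TPM with Aoah and 22.3, 10.1 and 39.5 TPM with vector. Those 6 values were mixed, and all of them lay above the 4 Luc vector tumours. As descriptions, LucOS exceeded Luc among vector tumours by 2.01 (SE 0.38), and the Aoah change in LucOS was 0.20 (SE 0.41).

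Ms4a6c was 15.4, 14.2, 18.8 and 17.0 TPM in Luc Aoah and 9.23, 11.4, 11.9 and 9.34 TPM in Luc vector tumours. Both groups were tight and did not overlap, yet the change of 0.59 (SE 0.38) did not pass (adjusted limma p 0.239). In a fit on the Luc tumours alone the same change had an adjusted limma p of 0.0475. In the LucOS model Ms4a6c was 19.8, 22.7 and 67.7 TPM with Aoah and 17.8, 23.9 and 63.2 TPM with vector, tumour 3 of either group standing far above the other two. Without LucOS Aoah 3 and LucOS vector 3 in the fit, the Luc change of Ms4a6c had an adjusted limma p of 0.0403. That of Ms4a4c had 0.0295 and that of Plac8 0.0407. In this fit 8 of the 10 genes passed, 7 higher and 1 lower, where 8.24% of all genes were higher and 9.3% lower. The 10 include Plac8 and Ms4a6b, which were chosen by level. Ms4a6c shares 55.4% of its 50-base words with BE692007, an annotated gene that overlaps it on the opposite strand. The labels do not say whether the libraries kept strand, so reads of both cannot be told apart; BE692007 lay at 0.03 to 0.18 TPM in Luc vector and 0.79 to 2.07 TPM in Luc Aoah tumours, and it rose by 0.98 (SE 0.21), with an adjusted limma p of 0.00757.

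Ms4a4c was 5.14, 6.23, 5.88 and 6.11 TPM in Luc Aoah and 4.21, 1.33, 1.59 and 0.85 TPM in Luc vector tumours. No values overlapped, but vector tumour 1 lay far from the other vector tumours and near the lowest Aoah tumour, and the change of 1.31 (SE 0.59) had an adjusted limma p of 0.108. LucOS tumours held Ms4a4c at 6.55, 6.87 and 31.3 TPM with Aoah and 2.90, 10.1 and 36.6 TPM with vector. The vector tumours differed 12.6-fold among themselves, the widest spread of any of the 10 genes within a group.

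Of 10 further Ms4a genes listed, 7 passed the filter, and in Luc 3 rose and 1 fell with Aoah, with a median of 0.01. Ms4a4b, a T cell gene, rose by 2.77 (SE 0.51, adjusted limma p 0.00293), with 3.71 to 10.7 TPM under vector and 41.9 to 70.2 TPM under Aoah. Ms4a4d rose by 0.97 (SE 0.27, adjusted limma p 0.0259), and the third was Ms4a7, a macrophage gene named here after its value was seen, at 1.21 (adjusted limma p 0.0482). Ms4a3, a gene of granulocyte and monocyte progenitors, fell by 1.13 (SE 0.38, adjusted limma p 0.0456). Ms4a6d, the close relative of Ms4a6b and Ms4a6c, spanned 9.94 to 12.4 TPM under vector and 9.61 to 12.6 TPM under Aoah, a change of 0.01 (SE 0.34). When each of the 8 Luc tumours was left out in turn, Ms4a4b passed in all 8 fits, Ms4a4d in 5 and Ms4a3 in 2, the Ms4a3 estimate reaching -0.67 without Luc vector 2. Without Luc vector 1 and 3, Ms4a4b (2.90, adjusted limma p 0.0314) and Ms4a3 (-1.68, adjusted limma p 0.0463) passed, and Ms4a4d did not (1.07, adjusted limma p 0.141).

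Fcgr1 encodes CD64, the high-affinity IgG receptor of monocytes and macrophages, which interferon gamma induces. It was 5.51, 5.45, 4.49 and 3.70 TPM in Luc Aoah and 3.59, 2.73, 3.04 and 2.87 TPM in Luc vector tumours. The groups did not overlap, with a small gap, and the change of 0.50 (SE 0.42) had an adjusted limma p of 0.372. Among LucOS tumours Fcgr1 was 4.14, 4.22 and 16.8 TPM with Aoah and 2.40, 7.29 and 13.8 TPM with vector. Tumour 3 was highest in both groups and the lowest value was a vector tumour; the change of 0.07 (SE 0.49) had an adjusted limma p of 0.984, and it was -0.04 without LucOS Aoah 3 and LucOS vector 3.

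Itgam encodes CD11b, the integrin chain shared by monocytes and neutrophils, and had the lowest mean of the 10 genes in every group. It was 0.46, 0.84, 0.34 and 0.36 TPM in Luc Aoah and 0.76, 0.57, 1.65 and 0.93 TPM in Luc vector tumours. The groups overlapped and most values lay under 1 TPM. The change was -0.38 (SE 0.28) with an adjusted limma p of 0.301. In the LucOS model Itgam was 0.32, 0.75 and 1.24 TPM with Aoah and 0.70, 1.31 and 3.53 TPM with vector, again overlapping, with a change of -0.59 (SE 0.32) and an adjusted limma p of 0.502. Gm49368, a gene annotated over Itgam on the same strand, shares 68.5% of its 50-base words and was listed at up to 0.53 TPM, so part of the Itgam reads may have gone to it.

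Of 9 partner genes of the Fc receptor and the integrin, 0 rose and 2 fell with Aoah in Luc, with a median of 0.36. Icam1, the endothelial and leukocyte ligand of CD11b, fell by 1.40 (SE 0.26, adjusted limma p 0.00318), with 23.8 to 33.8 TPM under vector and 6.79 to 15.6 TPM under Aoah. Itgad, the integrin chain closest to Itgam, fell by 0.83 (SE 0.27, adjusted limma p 0.0413). Icam1 passed in all 8 fits that left out a Luc tumour and Itgad in 2; without Luc vector 1 and 3 neither passed, at -1.25 (adjusted limma p 0.0794) and -0.68 (adjusted limma p 0.288). Fcer1g, the signalling chain of Fcgr1, stood at 0.49 (SE 0.35, adjusted limma p 0.295).

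Chil3 encodes Ym1, a secreted chitinase-like lectin of monocytes, neutrophils and alternatively activated macrophages. It was 4.46, 5.88, 2.90 and 1.20 TPM in Luc Aoah and 12.8, 38.2, 28.7 and 12.1 TPM in Luc vector tumours. All 4 Aoah values lay under all 4 vector values, and the change was -2.34 (SE 0.46) with an adjusted limma p of 0.00445. LucOS tumours held Chil3 at 3.52, 6.35 and 2.42 TPM with Aoah and 8.73, 25.8 and 26.6 TPM with vector. These groups did not overlap either (lower without overlap in 6.07% of all genes), and the change of -1.99 (SE 0.53) did not pass limma at 0.05 (adjusted p 0.0985). In the authors' deposited table, where positive values mean higher with Aoah as read from the sign of Aoah itself, Chil3 stood at -2.20 (SE 0.50) in LucOS with an adjusted p of 0.00168 and at -2.54 (SE 0.49) in Luc with an adjusted p of 4.42e-06. Without LucOS Aoah 3 and LucOS vector 3, its LucOS change was -1.49, with an adjusted limma p of 0.843 over 2 tumours a group. Chil4, the near copy with which Chil3 shares 17.9% of its 50-base words, was listed at 0 to 0.09 TPM.

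A list of 14 neutrophil markers moved beside Chil3, and its part in the result was not tested. Of these, 11 passed the filter and in Luc 0 rose and 7 fell with Aoah, with a median of -1.22. Without Luc vector 1 and 3, 0 passed in limma and 8 were lower at an unadjusted p under 0.05. The share of all genes lower by that rule in this fit is not given here, so the 8 cannot be set against it. The median of the list was then -1.23. Its summed level ran from 53.0 to 103 TPM among Luc Aoah tumours, from 146 to 410.2 TPM among Luc vector tumours, from 130.5 to 463 TPM among LucOS Aoah tumours and from 409 to 929.6 TPM among LucOS vector tumours. None of its genes was at 0 in every tumour of a group, although Ly6g, a defining marker, was at most 0.79 TPM in any tumour. S100a8, an abundant neutrophil gene, ran from 22.9 to 47.6 TPM in the Luc tumours given Aoah, below the 61.0 to 189 TPM of those given vector. Between the vector groups, the median of the summed list was 861 TPM in LucOS against 203 TPM in Luc, and mean Chil3 was 20.4 ± 10.1 TPM (SD, n = 3) against 22.9 ± 12.7 TPM (SD, n = 4). These sums lean on S100a8, at means of 349 and 106 TPM, and S100a9, at means of 327 and 100 TPM. By sign of the estimate, 8 of the 11 markers kept were higher in LucOS vector and 3 lower. Their median was 0.65, and 0 passed in limma. Among chitinase-like genes, 1 of 4 passed the filter, Chil1, and its change in Luc was 0.28 (SE 0.27).

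In the authors' deposited table for Luc, 9 of the 10 genes passed an adjusted p of 0.05, 8 higher and Chil3 lower. Of all genes with an adjusted p there, 31.7% passed, 15.6% higher and 16.1% lower. The 8 rises stand above the share seen in all genes and the single fall does not. The 8 include Plac8 and Ms4a6b, chosen for a difference of which Luc vector is the low side. The rises of these 2 genes are therefore not independent of their choice. The authors' deposited values were 2.60 (SE 0.38) for Ms4a6b, 1.88 (SE 0.27) for Ly6c2, 1.86 (SE 0.46) for Ms4a4c and 0.92 (SE 0.22) for Fcgr1. Itgam, at -0.72 (SE 0.35) with an adjusted p of 0.0987, was the exception in the authors' deposited table. These are the same libraries as in the limma fit, compared within the Luc model alone. A limma fit on the 8 Luc tumours alone called 8 of the 10 genes, 7 higher and 1 lower. In that fit 9.26% of all genes were higher and 9.7% lower. Plac8 and Ms4a6b are among these 10 genes as well.

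In LucOS tumours 0 of the 8 genes open to a test differed between Aoah and vector in limma, where 0.965% of all genes passed. The median change over the 8 genes was 0.07, against -0.02 over all genes. At an unadjusted p under 0.05, Ly6c2 was higher and Chil3 lower, and 7.86% and 4.42% of all genes met that rule in these directions. In the authors' deposited table for LucOS, 1 of these 8 genes passed, Chil3, where 2.77% of genes passed and 0.78% were lower. The difference between the Aoah effects of the models was tested as an interaction, and 0 of 8 genes passed it, as did 0.00743% of all genes; 0 of the 8 had an unadjusted p under 0.05 in limma, a rule that 6.8% of all genes met in the positive and 3.43% in the negative direction. For 7 of the 8 genes the estimate was negative, with a median over the 8 of -0.44 against 0.23 over all genes. Negative means a smaller rise in LucOS, except for Itgam, which fell more there (-0.59 against -0.38 in Luc). Chil3, the positive one at 0.34, fell less in LucOS (-1.99 against -2.34). A pass in Luc and none in LucOS therefore does not show that these genes responded differently. As descriptions, Ms4a6b differed by -1.82 (SE 0.54) and Plac8 by -1.06 (SE 0.51).

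Among vector tumours, LucOS stood above Luc for 7 of the 8 genes open to a test, with a median of 0.63 against -0.25 over all genes, but 0 of 8 passed in limma, nor did any gene of the table (0%). Ms4a6c differed by 1.45 (SE 0.41), Ms4a4c by 2.09 (SE 0.64) and Ly6c2 by 0.82 (SE 0.32), each with an unadjusted p under 0.05 and an adjusted limma p of 0.344; 3.16% of all genes were higher by that rule. Groups did not overlap for Ly6c2 and Ms4a6c, 2 of 8, and for 2.12% of all genes in that direction. Without LucOS vector 3 and LucOS Aoah 3 these 3 differences were 0.93, 1.25 and 0.55, each smaller than with tumour 3. Without Luc vector 1 and 3, 0 of the 8 genes passed in limma, nor did any gene of the table, and Ms4a6c and Ms4a4c were higher at an unadjusted p under 0.05. The share of all genes higher by that rule in this fit is not given here. Ly6c2 then differed by 0.71, Ms4a6c by 1.46 and Ms4a4c by 2.50, each with an adjusted limma p of 0.773. Fcgr1 differed by 0.88 (SE 0.46), Itgam by 0.43 (SE 0.30), Ccr2 by 0.39 (SE 0.29) and Ccl2 by 0.38 (SE 0.32). Chil3 was the exception, at -0.15 (SE 0.49). The Luc vector tumours serve in this comparison and in that of Aoah in Luc, so values of the same sign in both are not independent.

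Among Aoah tumours 0 of the 10 genes differed between LucOS and Luc in limma, where 0.0817% of all genes passed. The median was 0.29 against -0.01 over all genes. Ms4a6c differed by 0.91 (SE 0.41), with an unadjusted p of 0.0426 and an adjusted limma p of 0.690, and was the only one of the 10 under an unadjusted 0.05 (2.73% of all genes higher). Groups did not overlap for Ms4a6c and Ms4a4c (2.2% of all genes). Ccr2 at -0.02 (SE 0.29) and Ccl2 at -0.06 (SE 0.32) were close to 0, with errors larger than the estimates. Without LucOS Aoah 3 the Ms4a6c difference was 0.37.

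**Figure D3:**
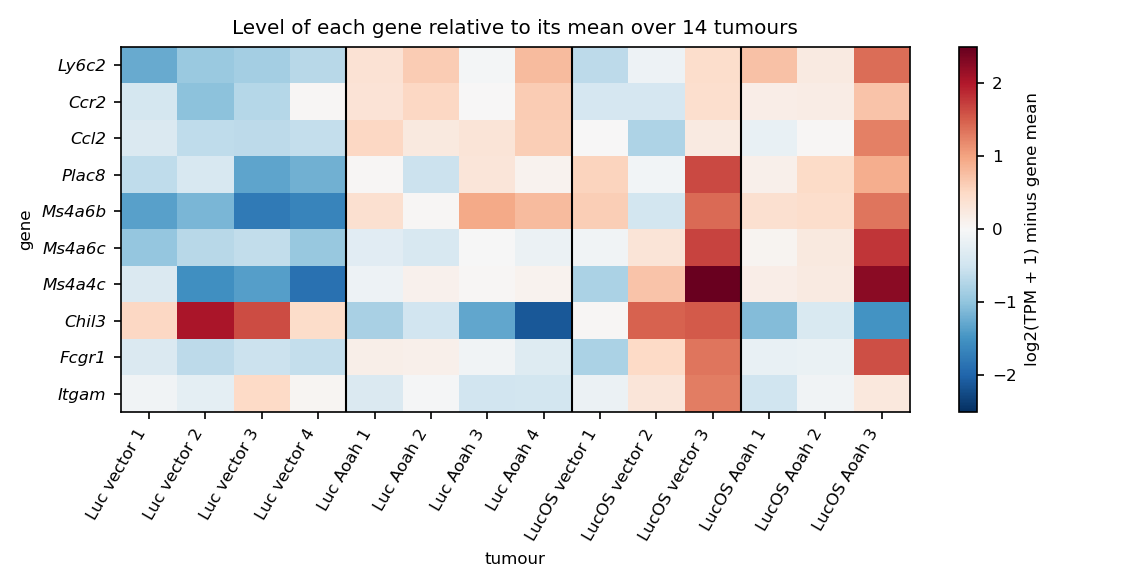
Level of each of the 10 genes (rows) in each of the 14 tumours (columns, grouped), as log2(TPM + 1) minus the gene's mean over all tumours; red is above and blue below that mean. LucOS vector 3 is red in all 10 rows and LucOS Aoah 3 in all but Chil3, Luc vector tumours are blue in most rows but red for Chil3, and every Aoah tumour is blue for Chil3.

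Within the LucOS groups the genes ranked alike by tumour. LucOS vector 3 was the highest of its 3 tumours for 10 of the 10 genes, and LucOS Aoah 3 for 9 of 10, Chil3 being lowest there. The 10 include Plac8 and Ms4a6b, chosen by level in LucOS vector tumours. LucOS vector 3 was also the highest for each of the 8 genes taken by name. LucOS Aoah 1 was the lowest of its group for 8 genes, and LucOS vector 1 and 2 for 6 and 4. In the Luc groups no tumour was highest for more than 3 genes. The summed level of the 10 genes was 478 TPM in LucOS vector 3 and 359 TPM in LucOS Aoah 3, against 169.91 to 199.37 TPM in the other LucOS tumours. Of the 478 TPM, 275 TPM was Plac8 and 39.5 TPM Ms4a6b. Of the 359 TPM, 164 TPM was Plac8 and 37.5 TPM Ms4a6b, so both sums lean on the chosen genes. In LucOS Aoah 3, lists of other cells stood high as well: 1030.21 TPM of 12 pan-macrophage markers against 391.83 and 429.65 TPM in its group, 162.83 TPM of 12 T cell markers against 58.96 and 95.83 TPM, and 3201.63 TPM of 18 interferon gamma response genes against 795.99 and 1117.65 TPM. The rise was not limited to immune lists. Hepatocyte markers were at 16102.87 TPM against 8653.21 and 6707.40 TPM. Stellate cell and fibroblast markers were at 223.93 TPM against 98.03 and 128.84 TPM. Endothelial markers were at 40.49 TPM against 26.67 and 14.85 TPM, and cholangiocyte markers at 59.03 TPM against 31.55 and 40.80 TPM. Other lists were the lowest of the group in LucOS Aoah 3. They were neutrophil markers, at 130.48 TPM against 266.98 and 463.17 TPM, and B and plasma cell markers, at 23.98 TPM against 84.34 and 101.76 TPM. In LucOS vector 3 several lists were the highest of its group: 929.62 TPM of neutrophil markers, 552.82 TPM of pan-macrophage markers against 262.44 and 475.12 TPM, 38.72 TPM of T cell markers against 13.39 and 33.61 TPM, and 561.65 TPM of interferon gamma response genes against 179.51 and 420.43 TPM. Its Kupffer list was 136 TPM, within its group's range. Its list of 16 other classical monocyte genes (below), at 3567.81 TPM, lay between the 1380.54 and 8567.01 TPM of its group. Hp alone ran from 957.09 to 7887.24 TPM in LucOS vector, so these sums lean on Hp and say little of the rest of the list. Type I interferon response genes, at 415.72 TPM, lay between 149.91 and 555.38 TPM. Its non-classical monocyte list, at 152.03 TPM against 191.39 and 262.97 TPM, was the lowest of its group. So was its stellate cell and fibroblast list, at 59.36 TPM against 60.11 and 66.90 TPM. Whether these lists, or the mitochondrial share of LucOS Aoah 3, had a part in the levels of the monocyte genes was not tested.

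The genes whose deviations from the group means over the 14 tumours were most like those of each monocyte gene were read as a description; these correlations (Pearson r of log2 values) are over points that share libraries. Ms4a6c ran with Slfn2 and Klra2 (0.99 each) and with Fcgr4, another IgG receptor (0.97). Ms4a4c ran with Fcgr4 and the macrophage gene Aif1 (0.93 each). Fcgr1 ran with the inhibitory receptor gene Pirb (0.97) and the lectin receptor gene Clec4a1 (0.96). Ms4a6b and Plac8 had the same leading gene, Cyba, a chain of the phagocyte oxidase, at 0.96 and 0.91. Chil3 ran with Gm6658 and with Elane, neutrophil elastase (0.88 each). Chil3, Ly6c2, Ccr2 and Ccl2 each shared none of their 3 leading genes with another member. Ly6c2 ran with Tmem35b (0.93), Ccr2 with Sirpd and Slamf8 (0.92 each), Ccl2 with Zfp52 (0.93) and Itgam with Clec4a1 (0.89).

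Other genes of classical monocytes were read from a list of 16, of which 14 passed the filter. In Luc, 2 rose and 3 fell with Aoah, with a median of -0.09. Lyz2, lysozyme of monocytes and macrophages, rose by 1.88 (SE 0.30, adjusted limma p 0.00127), with 60.3 to 94.4 TPM under vector and 240.3 to 324 TPM under Aoah. S100a4, a calcium-binding protein gene of monocytes, T cells and fibroblasts, rose by 2.56 (SE 0.50, adjusted limma p 0.00442), with 6.77 to 26.1 TPM under vector and 55.7 to 109 TPM under Aoah. Fn1, fibronectin, which hepatocytes also make, fell by 1.86 (SE 0.39, adjusted limma p 0.00639). Named after their values were seen, F13a1 and Tmem176b of this list were lower as well. F13a1 ran from 0.12 to 0.39 TPM under Aoah against 0.72 to 1.69 TPM under vector. Tmem176b ran from 108 to 258 TPM against 341 to 451 TPM. By sign of the estimate, 6 of the 14 genes were higher and 8 lower. Of 12 genes of non-classical, patrolling monocytes, 9 passed the filter and in Luc 2 rose and 0 fell, with a median of 0.57: Fabp4 by 0.75 (SE 0.22, adjusted limma p 0.0323) and Cd300ld by 1.01 (SE 0.32, adjusted limma p 0.0413). Of 10 transcription factors of monocyte development, 10 passed the filter, 0 rose and 2 fell, with a median of -0.21. Those were Bach1 (-0.73, SE 0.22, adjusted limma p 0.0332) and Cebpd (-0.85, SE 0.26, adjusted limma p 0.0336). Of 9 other Ly6 genes 4 passed the filter, 0 rose and 1 fell with Aoah: Ly6e fell by 1.57 (SE 0.53, adjusted limma p 0.0477). Of the 8 fits that left out a Luc tumour, Lyz2, S100a4 and Fn1 passed in 8, Cebpd in 3, Fabp4, Cd300ld and Bach1 in 2, and Ly6e in 1. Without Luc vector 1 and 3, 1 of the 14 classical genes rose, Lyz2 (1.77, adjusted limma p 0.0314), and 1 fell, a gene other than Fn1. S100a4 at 2.12, Fn1 at -1.38, Fabp4 at 0.92, Cd300ld at 1.24, Bach1 at -0.66, Cebpd at -0.71 and Ly6e at -1.45 then had adjusted limma p-values from 0.0945 to 0.265. In these 4 lists 0 genes passed limma in LucOS with Aoah or between LucOS and Luc. At an unadjusted p under 0.05, the LucOS Aoah comparison held 2 higher and 1 lower of the classical, 3 higher and 0 lower of the non-classical, 4 higher and 0 lower of the factor and 0 higher and 0 lower of the Ly6 list. Of all genes, 7.86% were higher and 4.42% lower by that rule in this comparison.

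**Figure D4:**
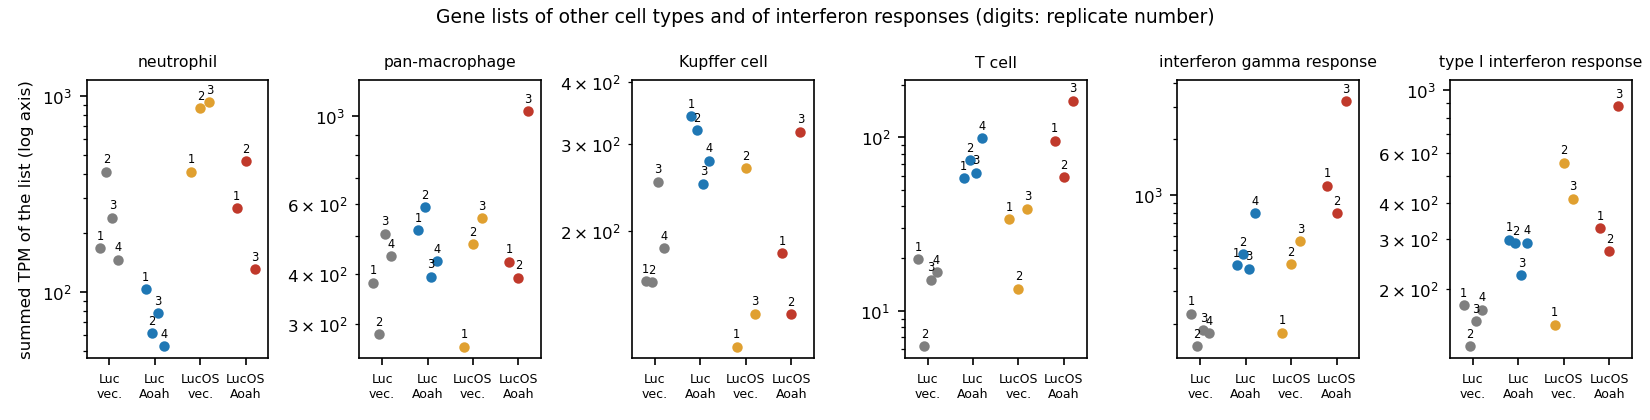
Summed TPM (log axis) of 6 gene lists in the 14 tumours by group, with replicate numbers. In Luc, T cell and interferon lists are higher in all Aoah tumours and neutrophil markers are lower, pan-macrophage sums overlap, and LucOS Aoah 3 is highest of all tumours for the macrophage, T cell and both interferon lists.

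Lists of other cells and of interferon responses moved beside the monocyte genes in Luc. Of 12 T cell markers, which mark cells that also transcribe Ly6c2, Plac8 and Ms4a6b, 9 rose with Aoah in Luc and 2 in LucOS, and 0 fell in either. Their sums were 58.1 to 99.5 TPM against 6.24 to 19.9 TPM in Luc, and 59.0 to 163 TPM against 13.4 to 38.7 TPM in LucOS. Of 8 NK and cytotoxic markers, 4 passed the filter and 4 rose in Luc, with sums of 52.4 to 93.9 TPM against 4.95 to 18.02 TPM. Of 12 pan-macrophage markers, 0 passed limma in Luc or LucOS (1 higher and 0 lower, and 2 higher and 0 lower, at an unadjusted p under 0.05), with sums of 394 to 589.7 TPM against 282 to 505 TPM in Luc. By that rule 7.86% of all genes were higher in LucOS, and the share in Luc is not given here. Of 10 Kupffer cell markers, 4 rose in Luc and 0 in LucOS (0 higher and 0 lower at an unadjusted p under 0.05); their sums were 249 to 342 TPM against 158 to 252 TPM in Luc. Of 17 interferon gamma response genes that passed the filter, 8 rose with Aoah in Luc and 4 in LucOS, with medians of 1.31 and 1.69, and 0 fell. Psmb9, an immunoproteasome chain, rose by 1.99 (SE 0.32, adjusted limma p 0.00124) in Luc and by 2.01 (SE 0.37, adjusted limma p 0.0244) in LucOS. Of 16 type I interferon response genes, 6 rose in Luc and 0 in LucOS, and 0 fell, with medians of 1.07 and 0.55 (0 higher and 0 lower in LucOS at an unadjusted p under 0.05). Stromal and B cell markers moved as well: 4 of 8 stellate cell and fibroblast markers that passed the filter rose in Luc, with sums of 108 to 173 TPM against 34.3 to 63.9 TPM. Of 8 endothelial markers 3 rose, with sums of 25.4 to 46.0 TPM against 8.27 to 28.2 TPM. Of 8 B and plasma cell markers 3 passed the filter and 3 rose, with sums of 53.0 to 122 TPM against 3.95 to 29.5 TPM. Without Luc vector 1 and 3, the markers that rose in Luc were 5 for T cells, 4 for NK and cytotoxic cells, 1 for Kupffer cells, 2 for the interferon gamma response, 0 for the type I interferon response, 0 for stellate cells and fibroblasts, 0 for endothelium and 1 for B and plasma cells. At an unadjusted p under 0.05 in limma, 6 type I interferon, 4 stellate cell and fibroblast and 4 endothelial genes were higher and 0 lower. The share of all genes higher by that rule in this fit is not given here, so these counts cannot be set against it. The Psmb9 change without Luc vector 1 and 3 was 2.11 (adjusted limma p 0.0176). Pax5, a B cell transcription factor, was at 0 throughout LucOS vector. No marker of the T cell, NK, pan-macrophage, Kupffer, interferon, stellate or endothelial lists was at 0 throughout a group. The part of these cells or responses in the levels of the monocyte genes was not tested.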

How the data were processed

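Bulk polyA RNA of 14 tumours was measured. Per the labels' protocols, RNA was taken with TRIzol, selected on poly-T beads and primed with random hexamers. RSEM, DESeq2 and build mm39 appear in the submitters' processing notes, without versions or settings, and no source used here names an aligner. Gene levels were deposited by the authors as log2(TPM + 1), and converted back, TPM summed to nearly the same total in each tumour; depth is unknown. The authors' 2 deposited tables of comparisons hold a baseMean (used as a signal, not tested), log2 fold changes, Wald statistics (a score, not used) and p-values per Ensembl identifier; 95.5% and 95.6% of identifiers were named from the reference table. All columns were matched to samples.

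Values were tested with limma 3.58.1 in R 4.3.3 (trend, robust; 4 group means, all 14 tumours, two-sided), keeping genes at 1 TPM or more in at least 3 tumours and adjusting over all of them by Benjamini-Hochberg at 0.05. The fit was tested on simulated data. The comparisons were Aoah against vector in each model, LucOS against Luc in each arm, and the interaction. Named genes are the 10 members, up to 3 genes of smallest p per related list, close copies, and the 3 most correlated genes per member. The members and lists were chosen with earlier results of these data known. Shared 50-base words were counted on GENCODE M21 transcripts. Alternatives varied the pseudocount (0.1), filter, variance model, samples, scaling and replicate numbers as a block, and left out tumours; list counts without Luc vector 1 and 3 were added after seeing the data. A table of T and B cell receptor repertoires was not used here. The list of chemokine receptors and ligands is not reported here in full.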

Additional observations from a re-analysis of the deposited data

How the results depend on the processing

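In Luc, 5 of the 10 genes passed with Aoah. The count was 3 without a filter on low values, 8 with only the compared groups in the fit, 2 without Luc vector 1 and 3, and 8 without LucOS Aoah 3 and LucOS vector 3 (chosen after seeing the data); leaving out single tumours gave 3 to 6. It was 5 or 6 under the other settings except the block. With the replicate block the count was 3, Ccr2 and Ccl2 standing at adjusted limma p-values of 0.0576 and 0.0612. Same-numbered tumours did not deviate together (correlations -0.55 to 0.10 over pairs). These deviations are from means of 3 or 4 tumours, so the check cannot exclude a pairing. The labels state none. In each of the other 4 comparisons the count was 0 under every setting run. Centring each tumour on its median moved the median change of all genes in Luc from -0.24 to 0.07 and the share of the calls that were higher from 35.7% to 52.1%; Ms4a4c then passed as well, at 1.62 (adjusted limma p 0.0467).

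Over all genes, calls in Luc, 1068 higher and 1920 lower, became 713 and 575 without a filter, 681 and 487 with the replicate block, and 265 and 96 without Luc vector 1 and 3; single tumours left out gave 531 to 1219 higher and 336 to 4050 lower. In LucOS, 101 higher and 29 lower became 11 and 4 without a filter, 6 and 0 with only the compared groups, 29 and 5 with the block, 160 and 58 after centring, 17 and 5 without Luc vector 1 and 3, and 13 and 2 without LucOS Aoah 3 and LucOS vector 3; single tumours left out gave 11 to 299 higher and 2 to 54 lower. The other comparisons held at most 14 calls under any setting.

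Changes of sign were all in estimates that did not pass or were not tested. In LucOS, Fcgr1 was -0.04 and Plac8 0.07, untested and -0.20 with all tumours, without LucOS Aoah 3 and LucOS vector 3. Between LucOS and Luc vector tumours, Chil3 was 0.17 after centring. Between LucOS and Luc Aoah tumours, Ccr2 was 0.12 and Chil3 -0.08 with the replicate block, Ccr2 0.05 and Ccl2 0.01 after leaving out mitochondrial genes, and Ms4a6b -0.13 and Fcgr1 -0.15 without LucOS Aoah 3 and LucOS vector 3. Ms4a6d in Luc was 0.00 after leaving out mitochondrial genes. Leaving out single tumours gave ranges across 0: with Aoah, Ms4a6d -0.05 to 0.07 in Luc and Fcgr1 -0.53 to 0.56, Plac8 -0.59 to 0.27, Ms4a6b -0.29 to 0.64, Ms4a6c -0.49 to 0.58 and Ms4a4c -0.72 to 0.92 in LucOS; in vector tumours, Chil3 -0.41 to 0.34 and Ms4a4b -0.13 to 1.52; in Aoah tumours, Ccr2 -0.20 to 0.07, Ccl2 -0.51 to 0.22, Ms4a6b -0.13 to 0.35, Chil3 -0.12 to 0.44 and Fcgr1 -0.15 to 0.75; and in the interaction, Chil3 -0.15 to 0.60, Fcgr1 -1.03 to 0.05 and Itgam -0.52 to 0.19. The cause was not tested. Depth is unknown, and 3 or 4 tumours a group limit the precision.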
